A study of Mus musculus with 3 samples.

Results

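Aminoacyl-tRNA synthetases are the enzymes that join each amino acid to its transfer RNA. Their mRNAs were examined in bisulfite-sequenced messenger RNA of mouse embryonic stem cells. Members were taken by gene symbol: a capital letter for the amino acid followed by "ars", with an optional final digit, plus Eprs, Farsa and Farsb. The reference annotation holds 37 such symbols, and 35 of them had a listed cytosine, among 13313 listed genes. Farsb, the beta subunit of the phenylalanyl enzyme, and Pars2, the mitochondrial prolyl enzyme, had no listed cytosine. The mitochondrial tyrosyl gene Yars2 was listed in replicate 2 only, with 5 cytosines at a mean coverage of 3.40 reads. That left 34 members with values in all 3 libraries.

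The samples were 3 and form a single group: embryonic stem cells of J1 background with the genotype Tet1-/-, Tet2-/-, Tet3-/-. All were cultured on fibroblast feeders, which were then depleted by differential attachment, and polyadenylated RNA was converted and sequenced. No other genotype was analysed here, and the deletions of the Tet genes, which encode oxidases of 5-methylcytosine, are shared by all libraries. Nothing in the labels says that the samples came from separate cultures, so the spread between them, on which the gene test below rests, may be technical. In this assay unmodified cytosine is read as thymine, while 5-methylcytosine, 5-hydroxymethylcytosine and cytosine that failed to react are all read as cytosine. The measured quantity, the unconverted share, therefore does not separate these.

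Every cell needs a synthetase activity for each amino acid in the cytosol, and mitochondria use a partly separate set, encoded in the nucleus and named with a final 2. The enzymes belong to structural classes I and II, which bind ATP through unrelated folds. In mammals a group of cytosolic enzymes (Eprs, Iars, Lars, Mars1, Qars, Rars, Kars and Dars) assembles with the scaffold proteins of Aimp1, Aimp2 and Eef1e1 into the multisynthetase complex. The proteins act on tRNA, itself a well-known carrier of 5-methylcytosine. Here it was their own mRNAs that were read.

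The whole tables hold 139884444 to 151362866 summed cytosine reads per library, a sum to which a read adds every cytosine it covers. The library-wide unconverted share was 1.53%, 1.45% and 1.41% in replicates 1, 2 and 3. All 8 stem cell markers examined had listed cytosines, though Nanog (8.82 reads per cytosine) and Esrrb (3.13) only thinly. Together they took 0.423% ± 0.00611 of all coverage (SD, n = 3). Of 8 fibroblast markers 4 were listed, at 0.0307% ± 0.00803 of all coverage, and Postn, Pdgfrb, Lum and Dcn were not. The part of feeder RNA in the results below was not tested.

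The 5′ ends of 5 members show what was read base by base. They are the members whose cytosine positions all fell on a C of the RefSeq sequence after the start site (GRCm38.p6) and that had a testable cytosine, one read at least 10 times in all 3 libraries, within 30 bases. Of 17 transcripts that could be compared in this way, 13 matched at every listed cytosine and 4 did not. Capitals mark the testable cytosines, lower case all other bases.
Gars (chr6:55038001-55038030, plus strand): gcttCCgtagCCgCCCtgCgCaCCgCCtag
Tars (chr15:11399629-11399658, minus strand): agctggttccgcctgtggCCaCgtggCgCa
Iars (chr13:49682130-49682159, plus strand): gtcagtattgcatcacctccagaCgCggaa
Farsa (chr8:84856986-84857015, plus strand): cctagtcaggtccggcggcctgcacacgCC
Aars2 (chr17:45506841-45506870, plus strand): gcccggagctaagatggcggtggCgttggC

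Few reads at these ends were unconverted, though the windows of Iars, Farsa and Aars2 hold only 2 testable cytosines each. In Gars, which encodes the glycyl enzyme, the 13 testable cytosines held 14 unconverted of 2090 reads, or 0.670% (95% Wilson interval 0.399% to 1.12%). The share there was 0.636%, 0.440% and 0.965% in replicates 1, 2 and 3, in each case below that of the whole Gars mRNA (1.47%, 1.38% and 1.35%). Tars, the threonyl enzyme, held 3 unconverted of 440 reads over 5 cytosines, a share of 0.682% (0.232% to 1.99%). Iars, the isoleucyl enzyme, held 2 of 91, a share of 2.20% (0.605% to 7.66%), with 6.25% in replicate 1 and 0% in replicates 2 and 3. Farsa and Aars2 held 0 of 91 and 0 of 85, so that shares of up to 3.30% and 3.53% (3 counts of the total) remain possible. Intervals here and below cover counting error only, since PCR copies cannot be told from separate molecules and neighbouring cytosines share reads.

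Over the 5 windows, cytosines followed by G were unconverted in 8 of 917 reads and the others in 11 of 1880. The intervals of these shares, 0.443% to 1.71% and 0.327% to 1.04%, overlap.

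Coverage differed widely among the synthetase mRNAs, and the cytosolic ones were read more deeply. Mean coverage per listed cytosine is a per-position depth and only a rough measure of mRNA abundance, because cytosines below 3 reads were not listed. Fewer cells with an mRNA and less of it per cell cannot be told apart. The 19 cytosolic members had a median of 60.7 reads and the 15 mitochondrial ones a median of 17.1, against 11.1 over all 11766 genes listed in the 3 libraries. All members together took 0.616% ± 0.00888 of all coverage (SD, n = 3).

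Aars, the alanyl enzyme, was the deepest, at 164, 146 and 146 reads per cytosine in replicates 1, 2 and 3. Gars, whose protein serves both compartments, followed at 151, 126 and 131. The ranges of Aars and Gars over the libraries overlap, though Aars was higher in each library. Farsa (109 ± 7.12), the alpha subunit of the phenylalanyl enzyme, and Tars (104 ± 4.48) came next and also overlapped. Vars, the valyl enzyme (94.7 ± 4.66), lay above Iars (85.6 ± 5.59) without overlap (SD, n = 3 for each). Lars (81.5 ± 5.50), Qars (80.9 ± 5.28) and Eprs (69.7 ± 7.70) closed the upper group. Eprs encodes the fused glutamyl and prolyl enzyme, and the proteins of Iars, Lars, Qars and Eprs all belong to the multisynthetase complex.

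The best covered mitochondrial member was Iars2 at 32.7 ± 1.41 reads, below the 13 deepest cytosolic ones. Cars2 (28.1 ± 0.977), Sars2 (22.3 ± 0.657), Lars2 (19.8 ± 4.56) and Aars2 (19.8 ± 0.326) followed (SD, n = 3). Lars2 varied most of these, with 24.8, 18.8 and 15.8 reads. At the low end stood Nars2 (7.51 ± 0.518) and Tars2 (6.38 ± 1.46), near the listing minimum.

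**Figure D1:**
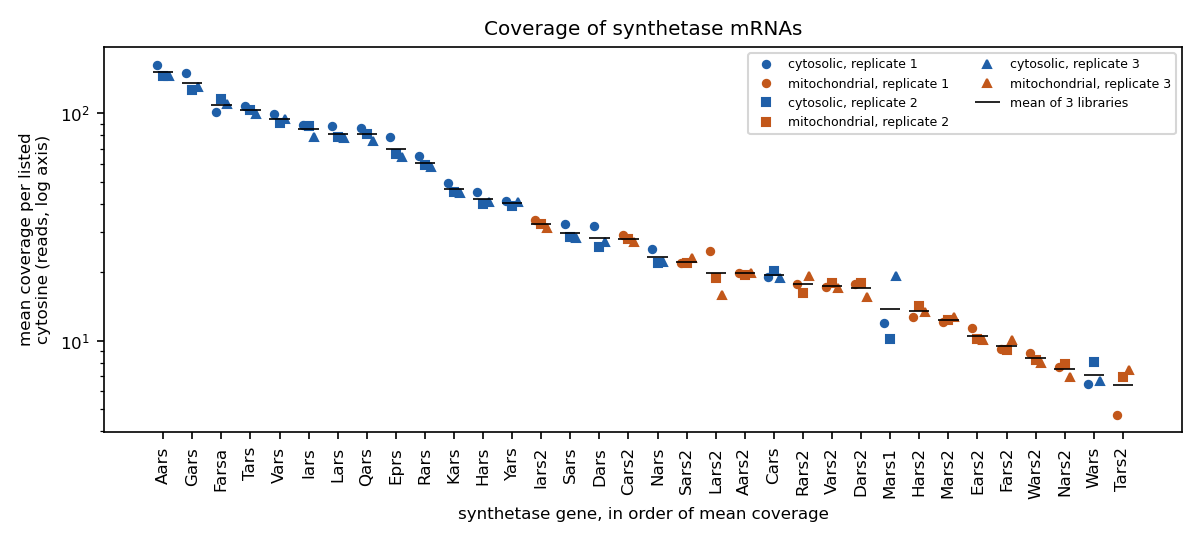
Mean coverage per listed cytosine (reads, log axis) of the 34 synthetase genes listed in all 3 libraries, in order of their mean; each point is a library, colour gives the compartment, and bars are means. The 13 deepest genes are cytosolic, led by Aars at 152 ± 10.4 reads, and the mitochondrial genes lie between 6.38 and 32.7 reads.

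Several cytosolic members were listed over a short stretch or split over transcript models. Kars, the lysyl enzyme, was listed as 3 transcript models that ended at position 254, and Mars1, the methionyl enzyme, only between positions 2569 and 2700. Nars, Cars and Wars were each split over 2 models, and Sars, the seryl enzyme, was listed between 1290 and 1464. Their coverage of 7.04 reads (Wars) to 46.3 reads (Kars) describes these stretches and is a mean over models, not over the whole mRNA. Qars was listed only between positions 55 and 674, so its 80.9 reads describe that stretch. By contrast the listed cytosines of Aars ran from position 21 to 3711 and those of Vars from 22 to 4201.

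The synthetase mRNAs were converted like the rest of the transcriptome. Their pooled unconverted share was 1.55%, 1.46% and 1.41% in replicates 1, 2 and 3, against 1.53%, 1.45% and 1.41% in the other genes. The synthetase share was thus slightly the higher in replicates 1 and 2 but not in replicate 3. The means were 1.47% ± 0.0730 and 1.46% ± 0.0643 (SD, n = 3), with a spread between libraries that both sets share. Each gene's share was then set against the library-wide share by limma, a linear model over all genes, on log2((unconverted reads + 0.5)/(coverage + 1)). This fit used 7387 genes with a summed coverage of at least 1000 in each library, 30 members among them. Over the 30, mean shares ran from 1.12% in Nars2 to 1.71% in Kars, with a median of 1.47%, against 1.46% over all genes fitted. The median log2 ratio to the library was 0.0083 in the members and -0.0040 over all genes fitted. In all 3 libraries 7 members lay above the library share and 8 below it, and 15 were mixed.

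Of the 30 members 3 passed an adjusted p of 0.05, 2 above the library and 1 below; over all genes tested 14.4% passed, 7.59% above and 6.77% below. The members' 10.0% is thus no higher than the background. Aars had 1.66%, 1.58% and 1.47%, above the library share in each. Its log2 ratio was 0.10 ± 0.018 (SE, limma adjusted p = 0.000117). Tars had 1.62%, 1.54% and 1.55%, again above in each, with a ratio of 0.11 ± 0.028 (adjusted p = 0.00871, limma). Lars, the leucyl enzyme, had 1.45%, 1.34% and 1.29%, below in each, with a ratio of -0.10 ± 0.027 (adjusted p = 0.00752, limma).

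The Tars call was lost without replicate 3 (adjusted p = 0.0972), and the Lars call without replicate 2 (0.0506) or 3 (0.0541), in the same limma fit. When the prior variance was not allowed to depend on coverage, limma called 0 of 7387 genes, 0 members included, while 1450 genes, 2 members among them, had an unadjusted p below 0.05.

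The other members at the ends of the range rest on less coverage. Kars (1.92%, 1.72% and 1.49%) had a log2 ratio of 0.23 ± 0.12 (SE, limma adjusted p = 0.219) and Sars (1.75%, 1.29% and 1.93%) one of 0.19 ± 0.19. In Cars2 the share was 1.60%, 1.50% and 1.77%, in Lars2 1.69%, 1.57% and 1.58%, and in Hars, the histidyl enzyme, 1.59%, 1.73% and 1.50%. Each of Cars2, Lars2 and Hars was above the library in all 3 libraries, and none of them passed the test (limma adjusted p from 0.0875 to 0.122).

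At the low end Nars2, the mitochondrial asparaginyl enzyme, had 1.40%, 1.24% and 0.725%, with a log2 ratio of -0.39 ± 0.17 (limma adjusted p = 0.120). Cars (-0.16 ± 0.13), Rars2 (-0.13 ± 0.090) and Wars2 (-0.11 ± 0.16) also lay low without passing the test (SE). A single library moved several of these ratios: without replicate 3 Nars2 stood at -0.15, Sars at 0.05, Cars2 at 0.06 and Cars at -0.06, and without replicate 2 Rars2 stood at -0.07 and Hars at 0.07. The same held for Cars (-0.29) and Wars2 (0.0088) without replicate 1, for Sars (0.35) and Wars2 (-0.29) without replicate 2, and for Rars2 (-0.22) and Wars2 (-0.03) without replicate 3. Nars, Mars1, Wars and Tars2 had too little coverage for the fit. In the plot of shares by gene the shallow genes scatter more widely than the deep ones.

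**Figure D2:**
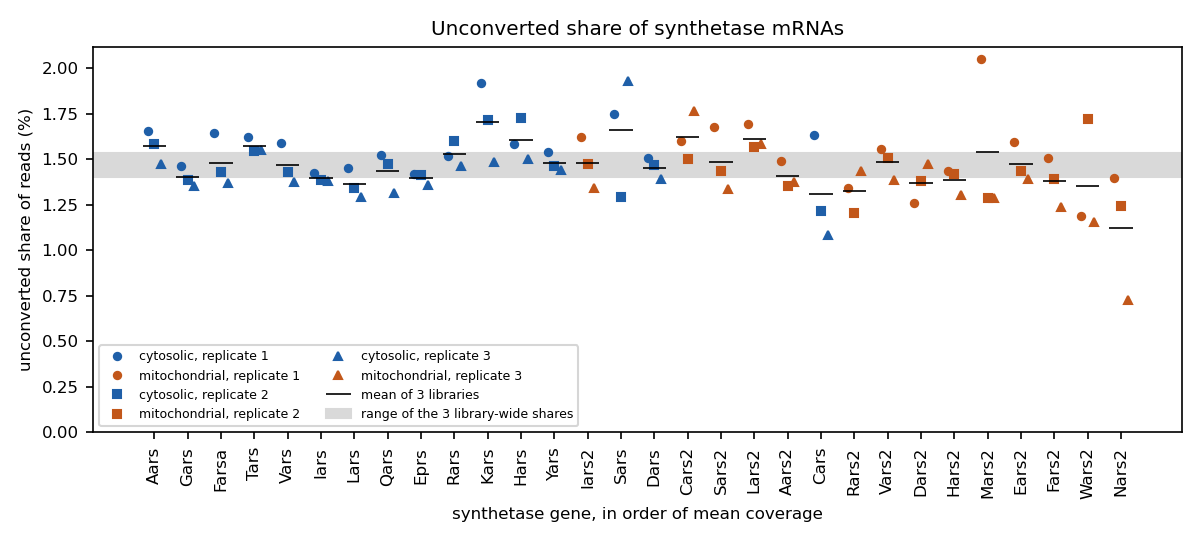
Unconverted share (%) of the 30 synthetase genes with enough coverage for the gene fit, in order of coverage; each point is a library, bars are means, and the grey band spans the 3 library-wide shares (1.41% to 1.53%). Aars and Tars lie at 1.57% and Lars at 1.36%, while the shallow Nars2 spreads from 0.725% to 1.40%.

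Divisions of the family by compartment, class and complex were described by pooled shares. With 3 libraries the smallest p of an exact two-sided sign-flip test is 0.25, so none of them could pass a threshold. Where genes were weighted equally, each library used only genes with a summed coverage of at least 1000 in that library. Nars (1118, 858 and 914 cytosine reads in replicates 1, 2 and 3) thus entered in replicate 1 only, at 2.33%. Mars1, Wars, Tars2 and Yars2 never entered. The 19 cytosolic members stood at 1.47% ± 0.0716 and the 16 mitochondrial ones at 1.47% ± 0.0843 (SD, n = 3). Their difference, cytosolic minus mitochondrial, was -0.0228, 0.0257 and -0.0069 percentage points in replicates 1, 2 and 3, without a common direction (exact p = 1.0). Without Aars, an alternative added once the values were known, its mean was -0.0238 and it was negative in 3 of 3 libraries, while with each gene weighted equally it was 0.0723 and negative in 0 of 3 (exact p = 0.25 for each). Of 13 cytosolic and mitochondrial pairs for the same amino acid, the cytosolic mRNA had the higher share in all 3 libraries in 5, and in none in 1, Lars with Lars2 (1.36% ± 0.0830 and 1.61% ± 0.0674; SD, n = 3). Among the 5 are Nars with Nars2 and Wars with Wars2, with the largest differences (0.903 and 0.835 percentage points). Nars and Wars had too little coverage for the gene fit.

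Class I members stood at 1.45% ± 0.0769 and class II members at 1.51% ± 0.0782 (SD, n = 3). Eprs, which joins an enzyme of each class, was left out. The difference, class I minus class II, was -0.0577, -0.0705 and -0.0524 percentage points in replicates 1, 2 and 3 (exact p = 0.25). Its mean of -0.0602 became -0.0275 without Aars, of class II, and -0.0294 with each gene weighted equally.

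Members of the multisynthetase complex stood at 1.41% ± 0.0468 and the other cytosolic ones at 1.51% ± 0.0862 (SD, n = 3). The difference, complex minus other, was -0.147, -0.0782 and -0.0686 percentage points in replicates 1, 2 and 3 (exact p = 0.25). With each gene weighted equally its mean was -0.0598 in place of -0.0978, and it was negative in 2 of 3 libraries (exact p = 0.5).

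Single cytosines were tested next. A cytosine was testable at 10 reads or more in all 3 libraries, which held for 10482 cytosines of 34 members. In each library an exact binomial test, one-sided, asked whether its unconverted reads exceeded the library-wide share. Fisher's method joined the p-values of the 3 libraries, which were then adjusted over all 1639820 testable cytosines. Counting error alone enters these p-values. The members' median was 123 reads over the 3 libraries, at which even 0 unconverted reads would leave room for a share of 2.44%, by the limit of 3 counts used above.

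The highest mean share among the testable member cytosines was 13.1%, and 8 of 10482 (0.0763%) reached 10%, against 0.138% of all testable cytosines. Candidate sites, with an adjusted p below 0.05 and a mean share of at least 10%, numbered 3, in Vars, Gars and Aars. That is 0.0286% of the members' cytosines, against 0.0473% over all testable ones.

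At position 981 of Vars (NM_011690.3) 5 of 27, 1 of 27 and 4 of 26 reads were unconverted in replicates 1, 2 and 3, a mean of 12.5% ± 7.81 (SD, n = 3; adjusted p = 0.000681, exact binomial). Replicates 1 and 3 carried it, and replicate 2 stood at 3.70%. Position 780 of Gars (NM_180678.3) had 3 of 21, 3 of 16 and 1 of 20 reads, or 12.7% ± 7.01 (adjusted p = 0.0334, exact binomial). At position 122 of Aars (NM_146217.4) the counts were 1 of 24, 4 of 15 and 1 of 12, or 13.1% ± 12.0 (adjusted p = 0.0499, exact binomial). There replicate 2 was high at 26.7% and the others stood at 4.17% and 8.33%.

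All of them rest on 51 to 80 reads, and none passed when the least significant library alone was used. The Vars site lost its call without replicate 1 or 3, the Gars site without 1 or 2, and the Aars site without 2 or 3 (exact binomial adjusted p from 0.0626 to 1). Only the Vars site stayed a candidate in a beta-binomial test that allows for extra spread between cytosines. Cytosines of like height did not pass. Position 242 of Aars (12.8% ± 15.5, 0 of 11 reads in replicate 1) stood above the Gars and Vars candidates, and positions 2344 and 877 of Hars2 (both 12.0%, from 44 and 49 reads) stood just below them. Eprs 1316, Ears2 140, Lars 2870 and Tars 1563 lay between 9.52% and 10.3%; at Tars 1563 all 4 unconverted reads came from replicate 1.

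**Figure D3:**
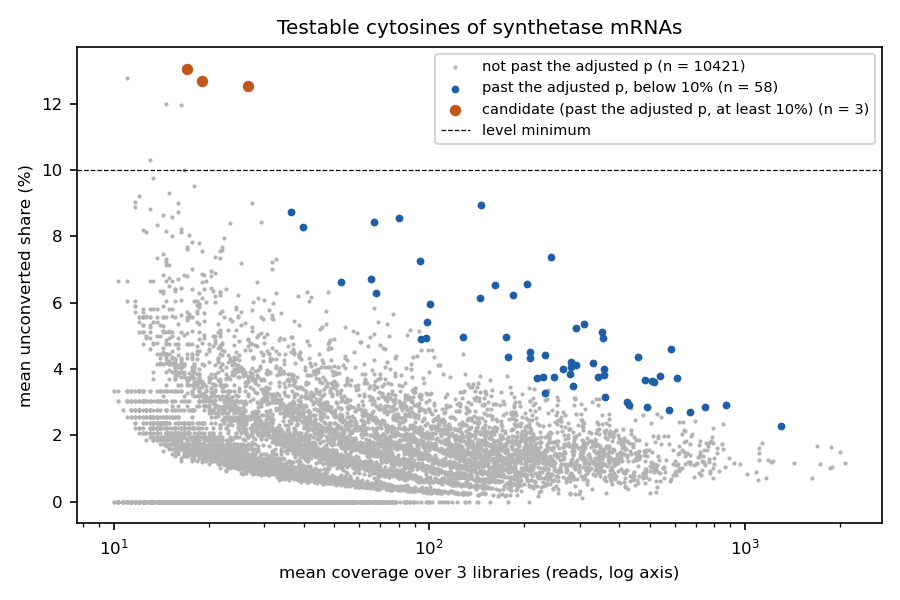
Mean unconverted share (%) against mean coverage (reads, log axis) of the 10482 testable cytosines of synthetase mRNAs, with those past the adjusted p in blue and candidates in orange. The 3 candidates lie at mean coverages of 17.0 to 26.7 reads, while the blue sites have mean shares between 2.29% and 8.95%.

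Supported by more reads were cytosines with a low share and deep coverage. Without the level minimum, 61 member cytosines passed an adjusted p of 0.05 with a share above the library in each replicate, which is 0.582% of those tested, against 0.469% over all genes. The members' deeper coverage moves with this: at a mean coverage of 100 reads or more 2.02% passed in the members and 2.33% over all genes, and at 50 to below 100 reads 0.433% and 0.411%. Their mean shares ran from 2.29% to 13.1% with a median of 4.37%, at a median coverage of 248 reads. They lay in 11 cytosolic genes, with 17 in Aars, 11 in Vars, 7 in Gars, 6 each in Eprs and Tars, 4 in Hars, 3 each in Iars and Rars, 2 in Farsa, and 1 each in Qars and Yars.

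The mitochondrial members had 0 such sites among 2968 testable cytosines in the combined exact binomial test and 0 in the beta-binomial test. An unadjusted combined p below 0.05 was found at 58 of them (1.95%), against 3.32% of all testable cytosines. Of these 2968 cytosines 140 had a mean coverage of at least 100 reads, against 2188 of 7514 in the cytosolic members. The mitochondrial members thus had fewer deep cytosines, and whether this bears on their 0 sites was not tested. Lars had 0 among 732 testable cytosines in both tests, of which 134 had a mean coverage of at least 100 reads. Over all genes 0.469% of testable cytosines passed the exact binomial test, and 2.33% of those that deep. In Lars 25 (3.42%) had an unadjusted p below 0.05 in that test, against 3.32% of all. Whether Lars differs from other genes in these counts was not tested.

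Of the sites at a mean coverage of at least 50 reads, the highest share was at position 3803 of Eprs (NM_029735.1). There 16 of 141, 11 of 135 and 12 of 163 reads were unconverted, a mean of 8.95% ± 2.11 (SD, n = 3; adjusted p = 3.86e-14, exact binomial). All replicates were above 7%, while the highest testable cytosine within 10 nt stood at 3.54%. Median coverage 50 to 100 nt before and after it was 19.3 and 23.0 reads, against a mean of 146 at the site. At position 3236 of Aars 20 of 261, 21 of 235 and 13 of 236 reads were unconverted, or 7.37% ± 1.73 (adjusted p = 5.88e-17, exact binomial), and the other testable cytosine within 10 nt stood at 2.29%. The lowest replicate had 5.51%, and median coverage at the same distances was 155 and 109 reads, against 244 at the site.

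The other sites among the 5 highest at a mean coverage of at least 50 reads lay in Vars, Farsa and Rars. Vars had 8.56% ± 1.38 at position 3245 from 240 reads, Farsa 8.44% ± 2.18 at position 1768 from 201 reads, and Rars, the arginyl enzyme, 7.24% ± 1.88 at position 986 from 281 reads (SD, n = 3). The highest testable cytosines within 10 nt of these were at 2.19%, 2.50% and 2.81%. All 5 sites were chosen for their height, so lower cytosines close by follow largely from that choice. Median coverage 50 to 100 nt before and after was 85.3 and 69.8 reads for Vars, against 80.0 at the site. For Rars it was 238 and 25.0, against 93.7. Farsa had 11.3 before, against 67.0, and no listed cytosine at that distance after. Whether these uneven depths bear on the shares was not tested. All 5 sites also passed the beta-binomial test (adjusted p from 6.69e-06 to 0.0202).

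**Figure D4:**
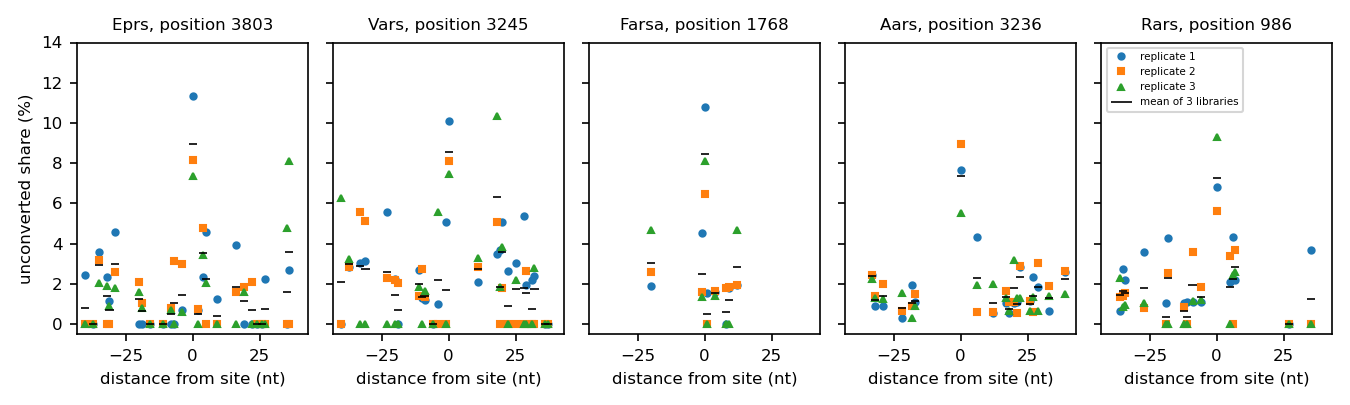
Unconverted share (%) of testable cytosines within 40 nt of the 5 highest deep sites, by distance from the site (nt); points are the 3 libraries and bars their means. Each site stands above nearly all cytosines around it, Eprs at 8.95% and Aars at 7.37%. The sites were chosen for their height, so the lower shares around them follow largely from that choice.

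Few of the 61 sites held under the strictest setting. Where each call had to hold in the least significant library alone, 3 passed: Eprs 3803, position 2813 of Aars and position 1434 of Tars. At Aars 2813 the counts were 25 of 568, 29 of 634 and 27 of 555 reads, a mean of 4.61% ± 0.234, and at Tars 1434 they were 19 of 393, 19 of 349 and 16 of 314 reads, or 5.12% ± 0.306 (SD, n = 3). In both the replicates differed by less than 1 percentage point, though a setting that asks for an excess in every library favours such agreement. Under the beta-binomial test 15 of the 61 passed, and 23 passed without each replicate in turn.

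The converse, deep cytosines with no unconverted read, was also seen. Position 178 of Qars, the glutaminyl enzyme, was converted in all 620 reads, which allows a share of up to 0.484%, and position 3940 of Eprs in all 535 (up to 0.561%). The latter lies in the same mRNA as the site at position 3803.

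The 61 sites shared a feature of spacing that their choice did not use. A listed cytosine directly on the 5′ side was found at 3 of them (4.92%), but at 27.2% of all testable member cytosines. On the 3′ side one was found at 12 (19.7%), against 27.3%, and 47 sites (77.0%) had a cytosine on neither side, against 52.1%. At a mean coverage of 100 reads or more the 5′ neighbour was present at 1 of 47 sites (2.13%), against 25.9% of testable cytosines that deep. The other genes showed the same direction with a smaller gap: 16.8% of their 7633 sites had a cytosine on the 5′ side, against 26.8% of testable cytosines. On the 3′ side the gap was slight, 25.5% against 26.9%. At the 772 candidate sites of other genes the 5′ gap was absent: 26.8% had a cytosine there. Candidates have the higher shares but also less depth. Over all genes, members included, 68 of 775 candidates had a mean coverage of at least 100 reads, against 5524 of 7694 sites past the adjusted p. These are counts, given as a description; whether members and other genes differ was not tested.

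**Figure D5:**
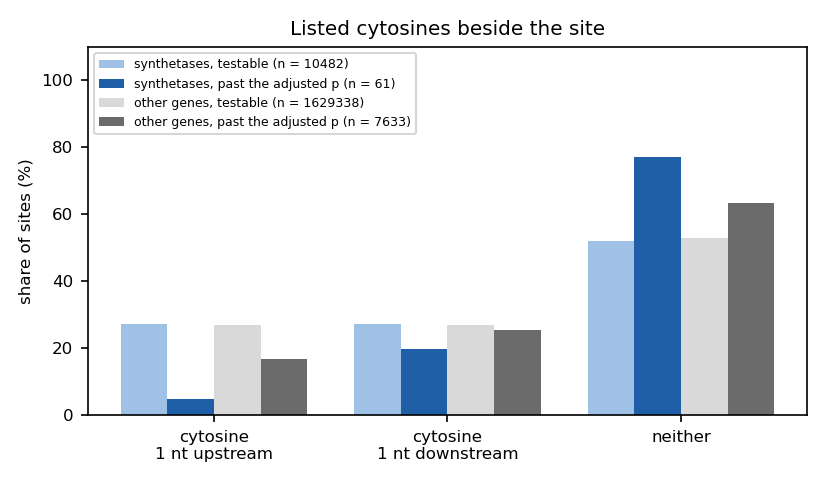
Share of sites (%) with a listed cytosine 1 nt upstream (5′), 1 nt downstream (3′) or on neither side, for testable cytosines and those past the adjusted p, in synthetases and in other genes; bars start at 0. An upstream cytosine stands at 4.92% of sites past the adjusted p and 27.2% of testable cytosines in the synthetases, and at 16.8% and 26.8% in other genes.

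The same direction was seen over all listed reads. Member cytosines with no listed neighbour were unconverted at 1.63%, 1.54% and 1.50% in replicates 1, 2 and 3, those with a neighbour on 1 side at 1.47%, 1.38% and 1.30%, and those within a run, with a neighbour on both sides, at 1.35%, 1.33% and 1.20%. This order held in each library. In other genes the corresponding means were 1.50% ± 0.0626, 1.43% ± 0.0674 and 1.32% ± 0.0658 (SD, n = 3).

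Along the mRNA, member positions 1 to 100 had 1.36% ± 0.0847 and positions 101 to 500 had 1.53% ± 0.0532, the former lower in every library (SD, n = 3). Other genes had 1.45% ± 0.0696 and 1.51% ± 0.0701 there, also lower at the start in every library. Beyond position 500 the member means lay between 1.44% and 1.48%.

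Replicates agreed poorly over all testable member cytosines and better over deep ones. Pearson's r between libraries was 0.0716 to 0.0965 over all 10482 and 0.302 to 0.336 over the 2328 with a mean coverage of at least 100 reads. Spearman's rho was 0.143 to 0.167 and 0.239 to 0.252. The cytosines share libraries and neighbouring ones share reads, so no p is given.

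Genes that work with the synthetases were read the same way. All 15 partners were listed and 12 entered the gene fit, where 1 rose above the library share and 2 fell below it, against 7.59% and 6.77% of all genes fitted. Aimp1, a scaffold of the multisynthetase complex and itself deeply covered (173 ± 9.43 reads per cytosine), had 1.22% ± 0.0645 (SD, n = 3). This was a log2 ratio of -0.27 ± 0.035 (SE, limma adjusted p = 6.43e-07), a larger shift than in any called synthetase. Xpot, the exporter of tRNA from the nucleus, had a ratio of -0.08 ± 0.025 (adjusted p = 0.0231, limma), and Dtd2, which removes wrongly charged amino acids, 0.23 ± 0.079 (adjusted p = 0.0436, limma).

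The partners held 8 sites past the adjusted p among 2338 testable cytosines (0.342%), against 0.469% of all testable cytosines, and 1 candidate, against 0.0473% of all. It lay in Aarsd1, an editing factor related to the alanyl enzyme, at position 374, with 1 of 25, 4 of 19 and 2 of 15 reads unconverted. Of 10 genes of the amino acid response, the program driven by the transcription factor Atf4 that also induces many synthetases, 8 were fitted and 3 passed, against 14.4% of all genes fitted. Phgdh (0.17 ± 0.035), an enzyme of serine synthesis, rose above the library. Asns (-0.16 ± 0.032), asparagine synthetase, and Mthfd2 (-0.10 ± 0.031), of mitochondrial folate metabolism, fell below it (log2 ratio and SE, limma adjusted p from 0.000641 to 0.0198). This list held 7 sites past the adjusted p among 2101 testable cytosines (0.333%) and 0 candidates, against 0.469% and 0.0473% of all testable cytosines.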

How the data were processed

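Bisulfite-converted mRNA was measured in 3 samples of 1 group. Alignment by BSMAP to the mm9 build is named in the submitters' processing notes, per the labels; the sources used here do not name its version, the counting step or the annotation. Each row of the deposited tables holds a cytosine of a RefSeq mRNA with its coverage, a raw read count of at least 3, and its unconverted fraction. Share times coverage was whole within 1e-06 at all listed cytosines and was taken as the unconverted read count. How the authors counted reads shared by several models of a gene is not known here. Of 15021 identifiers 14932 matched a symbol, by accession without version, in a GRCm38.p6 annotation used for names; the 5′ end sequences are RefSeq's of that build, not of mm9.

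Members, gene lists and tests were chosen with earlier results of these data known. Tests used Python 3.11.15, SciPy 1.17.1 and limma 3.58.1 in R 4.3.3 and were tested on simulated data. Candidates had to pass an adjusted p of 0.05, reach a mean share of 10% and exceed the library in each replicate. In limma, an intercept-only model with a prior variance trended on log10 coverage was fitted, and p-values were adjusted by Benjamini-Hochberg over all genes. Sites named were every candidate, the 10 highest, and the 5 highest at a mean coverage of at least 50. Genes named were those with a candidate, the 5 highest and 5 lowest log2 ratios, the 3 largest and 3 smallest summed coverages (not coverage per cytosine), and those without testable cytosines. Positions 2813 of Aars and 1434 of Tars, Aarsd1 374, the fully converted sites and the other genes with values were named after their values were seen, as were the spacing and position comparisons.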

Additional observations from a re-analysis of the deposited data

How the results depend on the processing

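The 3 candidates became 1 at a coverage minimum of 20 reads and 0 at 30, where no member cytosine with an unadjusted combined p below 0.05 reached 10%. They became 0 at a level minimum of 20%, which none reached, 22 at 5%, 0 with the highest of the 3 p-values, and 1 in the beta-binomial test. Over all genes the 775 candidates became 490 and 240 at those coverage minima and 87 and 3322 at those level minima. The highest of the 3 p-values gave 109 over all genes and the beta-binomial test 489. Leaving out a replicate gave 2 to 3 in the members, against 754 to 826 over all genes. The gene's own share as background gave 2 in the members and 733 over all genes. Of the original 3, only the Aars site stayed without replicate 1, the Vars site without 2 and the Gars site without 3. The remaining candidates in those runs were other cytosines. The 61 sites past the adjusted p at any level became 3 with the highest of the 3 p-values and 15 in the beta-binomial test. Without a replicate they became 39 to 44, and 43, 37 and 40 of the 61 were kept without replicates 1, 2 and 3. Over all genes the highest of the 3 p-values and the beta-binomial test gave 661 and 1590 in place of 7694, and leaving out a replicate gave 4897 to 5203. The 3 of 30 members called by limma became 5 of 21 at a summed coverage minimum of 5000, adding Hars and Iars. At that minimum 1104 of all 4498 genes were called, against 1061 of 7387 before. Without the coverage trend 0 members were called, with 2 at an unadjusted p below 0.05. Leaving out a replicate gave 1 to 3 members, against 673 to 805 of all 7422 to 7513 genes. The cytosolic minus mitochondrial difference of -0.0013 percentage points turned to 0.0723 with genes weighted equally, became -0.0238 without Aars, and ran from -0.0148 to 0.0094 without a replicate. The mean class and complex differences stayed negative under every alternative run, the latter in 2 of 3 libraries with genes weighted equally. The log2 ratio of Vars (0.0017) turned to -0.0025 over testable cytosines and -0.00063 without candidates, and ran from -0.0245 to 0.0178 without a replicate; that of Wars2 (-0.11) ran from -0.29 to 0.0088, and that of Nars2 (-0.39) from -0.54 to -0.15. The cause of these shifts was not tested. No paired analysis was possible because the samples form a single group. At 10 reads in a library a count of 0 allows a share of up to 30%, so low shares at cytosines this shallow were not detectable in single libraries.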
